A study of Mus musculus with 5 samples.

Results

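Peaks of the proteins PABPC1 and CCT3 were examined in 10 genes for SR splicing factors, Srsf1, Srsf2, Srsf3, Srsf4, Srsf5, Srsf6, Srsf7, Srsf11, Tra2a and Tra2b. The genes were taken by name, with earlier results of these data known. A peak was counted for a gene when the deposited peak table listed that gene's symbol. By this rule 42 of 14092 PABPC1 peaks, 1 of 10916 CCT3 peaks and 1 of 18650 peaks of a second CCT3 table belonged to the 10 genes, which are 10 of 21900 protein-coding genes in the annotation. PABPC1 is the cytoplasmic poly(A)-binding protein, and CCT3 is a subunit of the TRiC/CCT chaperonin.

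The cells were GC-2spd(ts), a mouse line labelled as spermatocytes, with no treatment or genotype difference between samples in the labels. The 5 samples were 1 PABPC1 immunoprecipitation, 2 CCT3 immunoprecipitations, here CCT3 and CCT3-2, and 1 input for each protein. The assay was eCLIP, in which RNA bound to a protein is immunoprecipitated, fragmented with RNase and sequenced beside an input made from the same lysate. The title of the series also names the long noncoding RNA Tug1, and the comparison here asks where on SR mRNAs the proteins were found. CCT3-2 carries the library name of CCT3, so the lists are not shown to be independent, PABPC1 has 1 list, and nothing between proteins has a replicate check or a test. Among 10 spermatocyte marker genes, chosen with earlier results of these data known, PABPC1 peaks were listed for 6, Sycp1, Sycp3, Syce1, Stra8, Dazl and Dmc1. Of all protein-coding genes 22.5% had one. Neither CCT3 list named any of the 10. The matching shares of all protein-coding genes were 9.15% in CCT3 and 12.0% in CCT3-2. With shares this small, 0 of 10 does not set the markers apart from other genes. Sycp2, Ddx4, Spo11 and Hormad1 had no peak in any list. Whether the source RNA of the libraries differed was not tested.

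SR proteins join RNA recognition motifs to a domain rich in arginine and serine, and they direct the choice of exons as well as the export and translation of mRNA. Many of their genes hold a poison exon, an exon that brings an early stop codon when it is spliced in and sends the mRNA to nonsense-mediated decay. Several SR proteins promote the inclusion of their own poison exon and so limit their own level. Srsf2 is known to do this with exons and introns of its 3′ UTR, and Tra2b with an exon near the start of the gene. PABPC1, bound to the poly(A) tail, is known to counteract nonsense-mediated decay when it lies close to a stop codon.

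PABPC1 peaks were listed for 8 of the 10 genes (80%, Wilson 95% interval 49.0 to 94.3%), against 22.5% of all protein-coding genes. At a stricter threshold, with the fold at 4 or more on the log2 scale and −log10 p at 5 or more, the same 8 genes kept a peak, and 13.8% of all protein-coding genes had one. CCT3 and CCT3-2 peaks were listed for 1 gene each, Tra2b (10%, 1.79 to 40.4%), near the 9.15% and 12.0% of all protein-coding genes. The counts were 9 Srsf7 peaks, 8 in Srsf3, 7 in Srsf11, 6 in Srsf2, 4 in Srsf6, 3 each in Srsf5 and Tra2a, and 2 in Tra2b. No list named Srsf1 or Srsf4. Fold and p are the authors' values for each peak over input. Intervals cover counting error only, since PCR copies of 1 molecule may be counted more than once and peaks side by side share reads. The depth behind the peaks is unknown and expression was not measured, so absence from a list does not show absence of binding. Whether the 10 genes differ from all protein-coding genes in expression was not tested either, so 80% against 22.5% is not a measure of preferred binding.

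The 3′ UTR class held 35 of the 42 PABPC1 peaks (83.3%, 69.4 to 91.7%), and 79.9% of the other 14050 PABPC1 peaks. Introns held 0 of the 42, which allows a share of up to 7.14% counted as 3 of 42 (Wilson upper bound 8.38%), and 1.10% of the other peaks. Internal exons held 1, in Srsf6 (2.38%, 0.422 to 12.3%), and 3.01% of the other peaks. The remaining 6 were in the promoter class, in Srsf2, Srsf3 and Srsf11 (14.3%, 6.72 to 27.8%), near the 13.2% of the other peaks. Neither CCT3 list had a peak of these genes in the intron or internal exon class, but each held only 1 peak of these genes (0%, 0 to 79.3%). Of the 10916 CCT3 peaks 29.6% were intronic and 18.7% in internal exons, and of the 18650 CCT3-2 peaks 27.6% and 14.6%. A share taken over 1 peak cannot be set against these values. The CCT3 peak in Tra2b was classed as 3′ UTR, and the CCT3-2 peak at the same place as promoter. Both list the same transcript, with its start given as 525 and 528 bases away. The promoter class held 0.925% of all CCT3 and 16.2% of all CCT3-2 peaks. It was thus not assigned alike in both lists, and classes cannot be compared between CCT3 and CCT3-2. The deposited classes follow any annotated transcript, so a class does not by itself say whether a peak lies in the last exon of the main mRNA. Exon coordinates were not used here, and no peak was assigned to a poison exon.

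**Figure D1:**
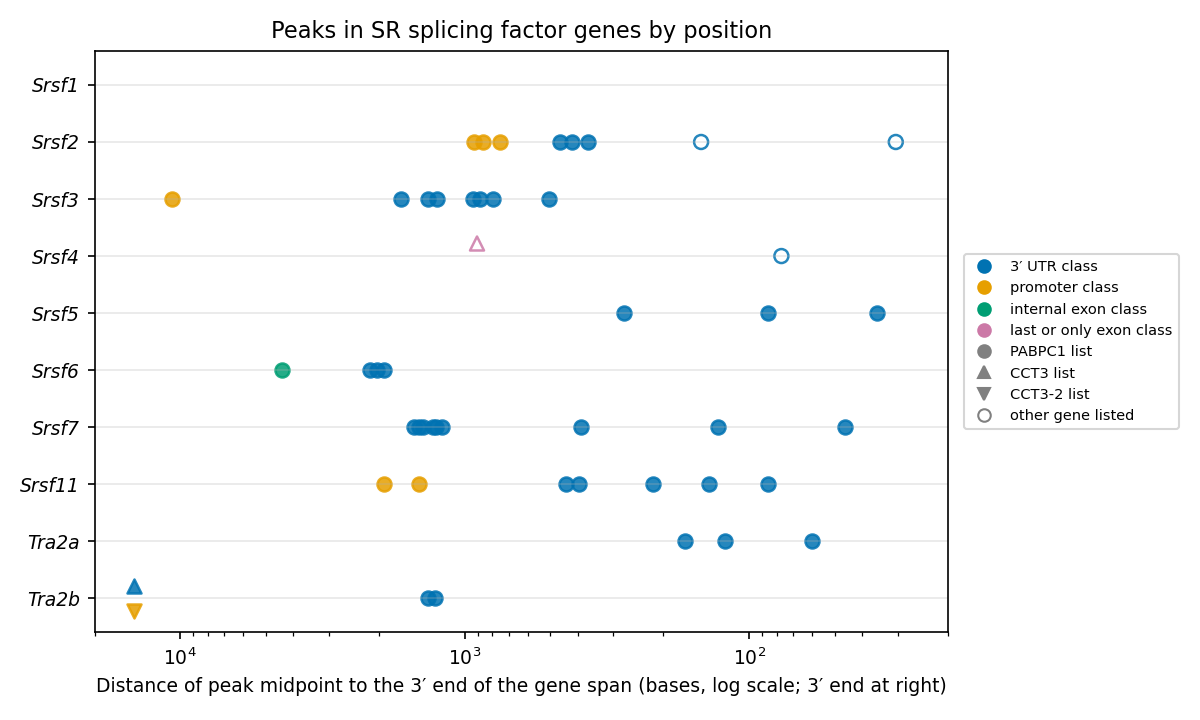
Position of each peak in the 10 SR splicing factor genes, as the distance of its midpoint to the gene's 3′ end in RefSeq, in bases on a log axis, 1 row per gene. Colour gives the deposited class, marker shape the list, and open symbols mark peaks in the gene span that are listed under another gene. Most PABPC1 peaks lie within 2160 bases of the 3′ end, while the CCT3 and CCT3-2 peaks in Tra2b lie 14505.5 and 14487.5 bases from it.

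Position along the gene was measured from the peak midpoint to the 3′ end of the gene as RefSeq gives it, introns included. Of the 42 peaks 17 lay within 500 bases of that end (40.5%, 27.0 to 55.5%), and 44.1% of the other PABPC1 peaks that lie in the span of their listed gene. Within 100 bases the shares were 11.9% and 15.5%, and the median distances 872.75 and 669 bases. The gene's nearest peak was within 100 bases of the end in 4 of the 8 genes, Srsf5, Srsf7, Srsf11 and Tra2a, and in 33.1% of 3900 other genes. By position rather than listed name it was 6 of 9 genes, with Srsf2 and Srsf4 added, a count with no like value over the list. The median log2 fold of the 42 peaks was 4.74, and 4.19 over the other peaks. The median of each gene's highest fold was 6.27 over the 8 genes and 4.69 over 5281 other listed genes, and the median number of peaks per gene was 5 and 2. A highest value tends to rise with the number of values it is taken over, so these differences are not separate. The −log10 p stood at the tables' ceiling of 400 for 4 of the 42 peaks, 2 in Srsf2 and 1 each in Srsf6 and Srsf7 (9.52%), and for 4.79% of the others. None of the 42 peaks was on the strand opposite to its gene, where 14.5% of the other PABPC1 peaks were opposite to their listed gene. All of the 42 lay in the span of their gene but only 68.3% of the others, so these strand shares are not like for like. Of the 42 peaks 19 directly abutted a neighbour on the same strand (45.2%), and 24.0% of the others, so a count of peaks is not a count of separate sites. Merged across gaps of up to 10 bases, the 42 peaks formed 30 sites.

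**Figure D2:**
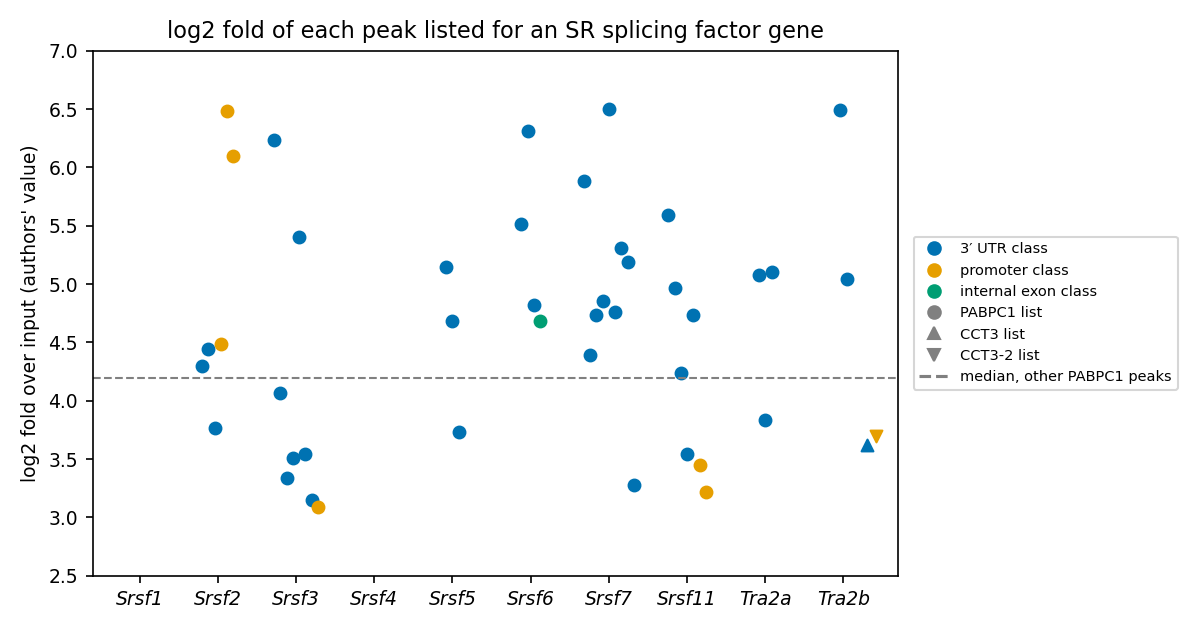
The log2 fold over input of each peak listed for the 10 genes, the authors' value, with the peaks of a gene ordered from its 3′ end at left. Colour gives the class and shape the list, and the dashed line is the median of the other PABPC1 peaks, 4.19. Folds within a gene differ by up to 3.22 log2 units, in Srsf7, and the columns of Srsf1 and Srsf4 are empty.

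Srsf7 encodes an SR protein with a zinc knuckle beside its RNA recognition motif and a role in mRNA export. Its gene, on the minus strand of chromosome 17, spans 80200080 to 80207369 (mm10, as for all positions here). All 9 of its PABPC1 peaks were in the 3′ UTR class, with log2 folds of 3.27 to 6.50 and a median of 4.86. They fell into a group of 3 with midpoints 46, 128.5 and 391 bases from the 3′ end and a group of 6 between 1200.5 and 1507 bases from it. The highest fold, 6.50 with a −log10 p of 61.4, belonged to the farther group, at 80201315 to 80201359, and so did the lowest, 3.27 at 80201575 to 80201599. The peak at 80201434 to 80201519 had the ceiling p and a fold of 5.31. In the group next to the 3′ end, the outermost peak, at 80200105 to 80200147, had the largest fold, 5.89. By number of peaks 1.91% of the 5289 genes named in the PABPC1 list stood above Srsf7, and by highest fold 7.83%.

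Srsf3 encodes the smallest SR protein, which joins the same export pathway as Srsf7. Its gene lies on the plus strand of chromosome 17 at 29032660 to 29043372. Of its 8 PABPC1 peaks 7 were in the 3′ UTR class, 505.5 to 1670.5 bases from the 3′ end, and none was closer. The peak nearest to the end, at 29042839 to 29042894, had the highest log2 fold, 6.24, and the next highest was 5.41 at 29042084 to 29042151. The other 5 had log2 folds of 4.06 at 29042560 to 29042591, 3.34 at 29042464 to 29042515, 3.51 at 29042433 to 29042437, 3.55 at 29042018 to 29042041 and 3.15 at 29041679 to 29041724. Apart from the leading pair, the Srsf3 folds were thus below the median of the other PABPC1 peaks.

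The eighth Srsf3 peak, at 29032683 to 29032752, lay at the other end of the gene and had its lowest fold, 3.09, with a −log10 p of 4.82. It starts 23 bases after the first base of the gene span, where the 5′ leader of the mRNA begins, and it was the only peak of the 10 genes to overlap a RefSeq promoter window (250 bases before to 50 after a start). Of all PABPC1 peaks 2.28% overlapped any such window. The stretch chr17:29032680-29032709 on the plus strand (RefSeq, GRCm38.p6, the same build as mm10) is shown because it places this peak at the start of the mRNA. Capitals mark the 27 bases inside the peak, and the rest of the peak lies beyond the window.
Srsf3 start: cgtGACGCCGCGAGACCGAGAATCTGTAGG
Of the 30 bases shown 63.3% are G or C.

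Srsf2 encodes a nuclear SR protein with a single RNA recognition motif, and its 3′ UTR is itself alternatively spliced. The gene lies on the minus strand of chromosome 11 at 116849897 to 116853675. Its 6 PABPC1 peaks formed 3 sites after merging. The 3′ UTR class held the abutting peaks at 116850249 to 116850281, 116850282 to 116850348 and 116850349 to 116850369, with log2 folds of 4.30, 4.44 and 3.77. The promoter class held those at 116850606 to 116850694, 116850727 to 116850793 and 116850794 to 116850851, with log2 folds of 4.48, 6.49 and 6.09. So the stronger Srsf2 peaks were in the promoter class, yet their midpoints lay 753 to 925.5 bases from the 3′ end and over 2852 bases from the 5′ end. The transcript listed beside them starts inside the gene, 720 to 877 bases upstream of these peaks. The peaks at 116850282 and 116850727 had the ceiling p.

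Srsf11 encodes an SR-related nuclear splicing protein. The gene lies on the minus strand of chromosome 3 at 158010915 to 158036667. Of 7 PABPC1 peaks 5 were in the 3′ UTR class within 440.5 bases of the 3′ end, and the fold was highest nearest to it. The log2 folds were 5.59 at 158010974 to 158011028, 4.97 at 158011029 to 158011078, 4.23 at 158011128 to 158011139, 3.54 at 158011287 to 158011338 and 4.74 at 158011339 to 158011372. The other 2, in the promoter class, were its weakest, with log2 folds of 3.45 at 158012311 to 158012410 and 3.22 at 158012802 to 158012876. They lay 1445.5 and 1924 bases from the 3′ end and 23828 bases or more from the 5′ end, again near transcripts listed as starting inside the gene. Of the 6 promoter-class peaks in these genes, 5 therefore lay far from the gene's own 5′ end, the Srsf3 peak being the exception. No like count over the whole list is given here.

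Srsf6 and Srsf5 encode SR proteins with a pair of RNA recognition motifs, and their PABPC1 peaks of the 3′ UTR class lay at different distances from the gene end. The Srsf6 gene is on the plus strand of chromosome 2 at 162931508 to 162937121. Its 3 peaks of the 3′ UTR class lay close together, the last pair abutting, with log2 folds of 4.82 at 162934926 to 162934996, 6.31 at 162935032 to 162935153, which had the ceiling p, and 5.52 at 162935154 to 162935230. They were 1929 to 2160 bases from the 3′ end of the span, the farthest such group among the 8 genes. The fourth, at 162932702 to 162932780, was the single internal exon peak, with a log2 fold of 4.68 (−log10 p 14.0). The deposited annotation placed it in exon 2 of 5 of a listed transcript, and it began 1194 bases from the 5′ end of the gene. Whether that exon is the poison exon of Srsf6 was not determined.

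The Srsf5 gene is on the plus strand of chromosome 12 at 80945495 to 80950507. All 3 of its PABPC1 peaks were in the 3′ UTR class within 275 bases of the 3′ end. Their log2 folds were 5.14 at 80950451 to 80950492, 4.69 at 80950397 to 80950446 and 3.73 at 80950221 to 80950243, in order from the end. The Srsf5 fold was thus highest for the peak nearest to the 3′ end. This order held in 4 of the 8 genes, Srsf3, Srsf5, Srsf11 and Tra2b, and not in the other 4, Srsf2, Srsf6, Srsf7 and Tra2a. A like count for the other genes of the list was not made, and Tra2b has only 2 peaks and Srsf5 3. The order is therefore not a trait of these genes.

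Tra2a and Tra2b encode paralogous SR-like proteins with an arginine and serine rich domain at either end, known for activating exons with purine-rich enhancers. The Tra2a gene is on the minus strand of chromosome 6 at 49243921 to 49264248, and its 3 PABPC1 peaks, all of the 3′ UTR class, ran together within 167.5 bases of the 3′ end. Their log2 folds were 5.08 at 49243945 to 49244017, 3.83 at 49244023 to 49244063 and 5.11 at 49244064 to 49244113. The Tra2b gene is on the minus strand of chromosome 16 at 22244552 to 22266005. Its 2 PABPC1 peaks, abutting and of the 3′ UTR class, had log2 folds of 6.49 at 22245791 to 22245863 and 5.05 at 22245864 to 22245921. They lay 1275 and 1340.5 bases from the 3′ end, so the paralogs differed in where along the 3′ region the peaks were, with Tra2b carrying the higher fold. By highest fold 7.88% of the genes named in the PABPC1 list stood above Tra2b and 35.0% above Tra2a.

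Tra2b was the gene named in all 3 lists, and the proteins were listed at different places in it. The CCT3 peak, at 22259018 to 22259097, had a log2 fold of 3.62 with a −log10 p of 4.09. The CCT3-2 peak, at 22258985 to 22259094, reached a log2 fold of 3.69 with a −log10 p of 5.13, lay on the strand of the gene and overlapped the CCT3 peak by 77 bases. Both were modest within their lists, where 69.7% of CCT3 and 57.0% of CCT3-2 peaks had a larger fold and 84.9% and 69.3% a larger −log10 p. Neither passed the stricter threshold, which 4.68% and 5.23% of all protein-coding genes passed in these lists. The CCT3 peak began 6908 bases from the 5′ end of Tra2b, with its midpoint at 32.4% of the gene's length, and 13096 bases separated it from the nearest PABPC1 peak. It was classed as 3′ UTR although its midpoint was 14505.5 bases from the 3′ end, and the transcript listed beside it starts inside the gene, 6383 bases from the 5′ end. By this class, some annotated transcript has its stop codon upstream of the peak. Whether the peak lies on the poison exon of Tra2b was not determined, as exon coordinates were not used here. No PABPC1 peak in the spans of the 10 genes overlapped a CCT3 or CCT3-2 peak.

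**Figure D3:**
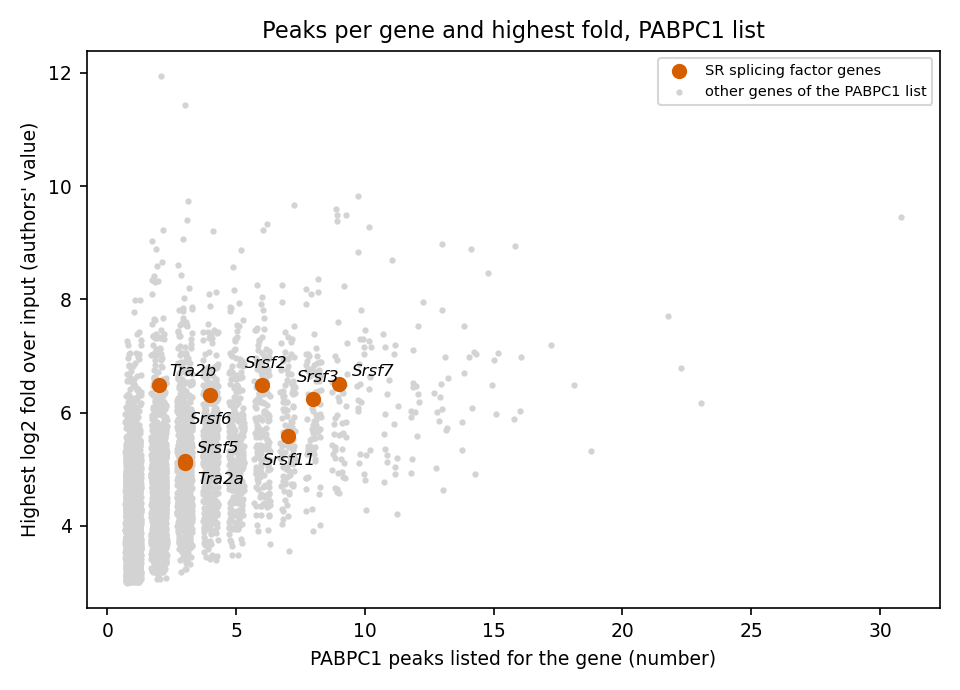
Number of PABPC1 peaks listed for a gene (x axis, grey points spread sideways for visibility) against the gene's highest log2 fold over input, the authors' value (y axis). The 8 SR splicing factor genes with a peak are labelled, and grey points are the other 5281 genes of the list. The SR genes lie between highest folds of 5.11 and 6.50, above the median of 4.69 of the other genes and far below the largest values. In genes further right the highest fold is taken over more peaks.

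Srsf4 and Srsf1 had no peak by listed name, and for Srsf4 this rested on the naming. Srsf4, which encodes an SR protein with a pair of RNA recognition motifs, lies on the plus strand of chromosome 4 at 131873530 to 131901725. Its span held a PABPC1 peak at 131901623 to 131901673 on the strand of Srsf4, of the 3′ UTR class, 77 bases from the 3′ end, with a log2 fold of 5.68 (−log10 p 52.8). It also held a CCT3 peak at 131900801 to 131900839 with a log2 fold of 3.50 (−log10 p 4.16), which the deposited annotation placed in exon 6 of 6 of a transcript with the gene ID of Srsf4, 57317. Both were listed under the neighbouring gene Gm12992, and CCT3-2 had no peak in the span. The span of Srsf2 held 2 further PABPC1 peaks on its strand, listed under the neighbour Mettl23, with log2 folds of 5.05 at 116849908 to 116849947 and 5.59 at 116850024 to 116850065, 30.5 and 147.5 bases from the 3′ end. Where genes share an end, reads cannot be told apart beyond their strand. By position 9 of the 10 genes had a PABPC1 peak, with 45 peaks, against 25.8% of protein-coding genes, 2 had a CCT3 peak, against 9.59%, and 1 a CCT3-2 peak, against 12.3%. Srsf1, which encodes the founding member of the family, lies on the plus strand of chromosome 11 at 88046499 to 88053757 and held no peak of any list by name or position.

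The 38 other genes of this pathway were grouped as 20 further SR and SR-like protein genes, 8 genes for SR kinases and nuclear import, and 10 genes for nonsense-mediated decay. They too were chosen with earlier results of these data known, so their shares are descriptive. PABPC1 peaks were listed for 14 of the 20 SR and SR-like genes (70.0%, 48.1 to 85.5%), against 22.5% of all protein-coding genes. The highest log2 folds were 7.84 in Luc7l, from its 1 intronic peak, 6.11 in Pnn, 5.95 in Scaf11 and 5.28 in Srrm1, and 7 of the 8 Scaf11 peaks lay outside its gene span. CCT3 peaks were listed for 8 of the same 20 genes (40%, 21.9 to 61.3%), as were CCT3-2 peaks, against 9.15% and 12.0%. Of the 49 CCT3 peaks in these genes 25 were in internal exons, a class with 18.7% of all CCT3 peaks. Most of the 25 came from Son, with 16, and Srrm2, with 7, so the count is not a trait of the 20 genes. Of the 97 CCT3-2 peaks 41 were in internal exons and 49 in the promoter class, which hold 14.6% and 16.2% of all CCT3-2 peaks. Most of the 41 again came from Son, with 24, and Srrm2, with 16. The highest CCT3 folds were 5.61 in Acin1, 4.81 in Son, 4.31 in Sfswap and 3.78 in Srrm2, nuclear proteins of splicing and nuclear speckles, and Son had 16 of its 19 CCT3 peaks in internal exons. The intervals for CCT3 in these 20 genes and in the 10 SR splicing factor genes overlap, and the difference was not tested.

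Kinases of the Clk and Srpk families phosphorylate SR proteins and so set where they reside. Of the 8 kinase and import genes 4 had a PABPC1 peak (50%, 21.5 to 78.5%, an interval that holds the 22.5% of all protein-coding genes), Clk3 at a log2 fold of 5.36, Clk4 at 4.54, Clk1 at 4.42 and Srpk2 at 3.06, the Clk3 peak and the 3 Clk1 peaks lying outside their gene spans. Srpk2 alone had a CCT3 peak, with 2 in the 3′ UTR class up to 3.79, and 7 in CCT3-2. Among the 10 decay genes PABPC1, CCT3 and CCT3-2 peaks were listed for 3 each (30%, 10.8 to 60.3%), against 22.5%, 9.15% and 12.0% of all protein-coding genes. The highest PABPC1 log2 folds were 5.89 in Upf2 and 5.15 in Upf3b, and the highest CCT3 log2 folds 5.38 in Upf2, 4.79 in Smg6 and 3.91 in Upf3b. All 11 CCT3 peaks in the decay genes were in internal exons, as were 14 of the 17 CCT3-2 peaks, the other 3 being in the promoter class. Internal exons held 18.7% of all CCT3 and 14.6% of all CCT3-2 peaks. In both lists the decay gene peaks came from 3 genes only, Upf2, Smg6 and Upf3b, so the count is not a trait of the 10 genes. Of the 6 PABPC1 peaks 4 were in the 3′ UTR class, too few peaks to set against that list's share of 79.9%.

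**Figure D4:**
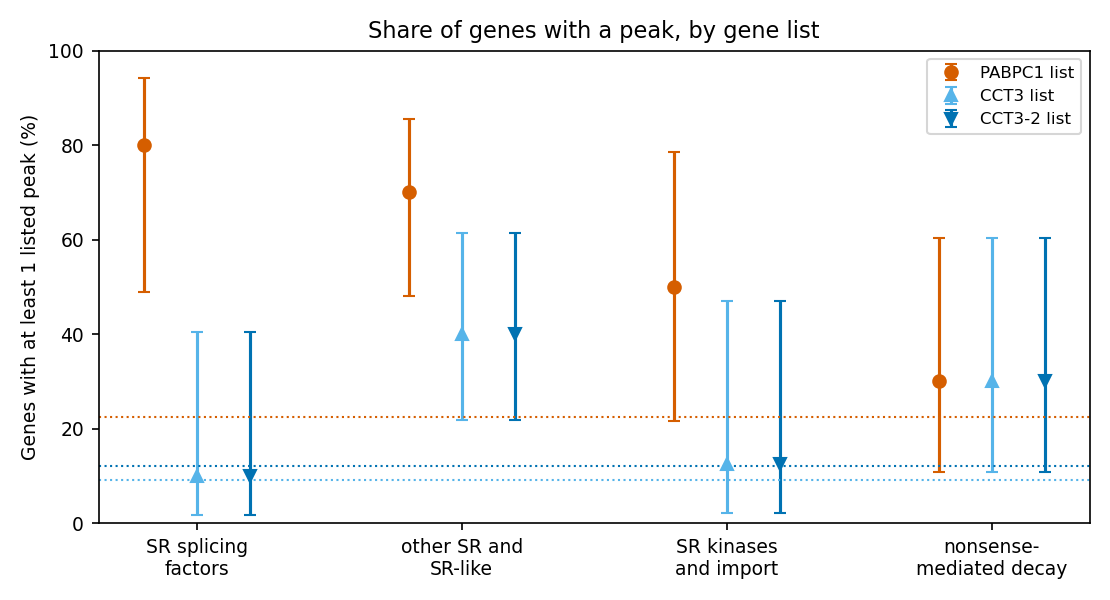
Share of genes with at least 1 listed peak (y axis, percent) in the 4 gene lists, for the PABPC1, CCT3 and CCT3-2 lists, with Wilson 95% intervals as bars. Dotted lines give the share of all protein-coding genes, 22.5%, 9.15% and 12.0%. In the SR splicing factor genes PABPC1 stands at 80% and both CCT3 lists at 10%.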

How the data were processed

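The 3 deposited peak tables used were those for PABPC1, CCT3 and CCT3-2. Per the submitters' processing notes the build was mm10 and bcl2fastq 2.20 was used. The aligner, the caller and duplicate handling are, in the sources used here, not given. The deposited −log10 p values are named as such in the header of the CCT3 table. Their ceiling of 400 was read from the values. The deposited log2 fold values were read as immunoprecipitation over input, and the unnamed columns of the other 2 tables were taken as these same measures because their ranges match. All PABPC1 and CCT3 peaks had both values at 3 or more.

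Peaks were taken by listed symbol, with position in the RefSeq span (GRCm38.p6) as an alternative. An internal exon is neither the first nor the last of its listed transcript. Shares were given Wilson 95% intervals. No test across samples was made. The counting was tested on simulated data. Python 3.11.15, numpy 2.4.6, pandas 2.3.3, scipy 1.17.1 and matplotlib 3.10.9 were used. The members and gene lists were chosen with earlier results of these data known. All 10 members are named, with every position where a list has 8 or fewer peaks, and up to 4 genes of each other list per protein. The values of 1 gene that this rule would name are not reported here.

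The alternatives were the stricter threshold (log2 fold 4, −log10 p 5), joining peaks up to 10 bases apart, gene by position, the CCT3-2 list with and without the minimum of 3, peaks on the gene's strand, and bases covered. Leaving out promoter-class peaks beyond 1000 bases of the 5′ end, and all settings for the 38 other genes, were chosen after seeing the data. Read depth per library was not used here, so precision beyond counting error is unknown.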

Additional observations from a re-analysis of the deposited data

How the results depend on the processing

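The 8 results were recomputed for 33 alternative values, and 26 of these kept shares inside their main interval and counts inside a factor of 1.5. Part of these could not move, so the tally overstates stability. Merging cannot change how many genes have a peak. The strand setting removed nothing, as no PABPC1 peak listed for the 10 genes was opposite. CCT3 shares were set against an interval of 0 to 79.3% from 1 peak. No paired analysis was possible because PABPC1 has a single list and samples were compared by no test. At the stricter threshold CCT3 had 0 genes and 0 peaks among the 10 genes, and by position it had 2 genes and 2 peaks, where the setting itself removes or adds a peak. For the 38 other genes, where the settings were chosen after seeing the data, the stricter threshold left 12 genes with a PABPC1 peak in place of 21, and 5 with a CCT3 peak in place of 12. Leaving out promoter-class peaks beyond 1000 bases of the gene's 5′ end, also chosen after seeing the data, put 94.6% of PABPC1 peaks in the 3′ UTR class, since it removes 5 of the other 7. The CCT3 share at the stricter threshold could not be given, as no peak was left, and the strand setting could not be run on the CCT3 table, which has no strand. With 1 CCT3 peak, CCT3 shares carry little information.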
